A study of Mus musculus with 6 samples.

Results

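The phospholipase C gene Plcb2, the transmembrane protein gene Tmem87a, the cyclin D binding protein gene Ccndbp1, the leucine-rich repeat gene Lrrc57, the mitochondrial tether gene Rmdn3 and the sorting nexin gene Snx5 are 6 genes of mouse chromosome 2 that read lower in haematopoietic stem cells labelled Matn4-/- than in wt cells, although each lies more than 10 Mb from Matn4 itself. They were chosen from 12764 genes tested because of that lower reading, so their difference between genotypes is given as a description and without a test. All probes named for them were taken. The platform's own symbols gave 12 probes, and updating symbols by accession added 1, listed there under the clone name A930025J12Rik and belonging to Tmem87a. The 13 probes are those discussed below, of 46237 on the array.

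RNA came from haematopoietic stem cells of female C57/BL6 mice aged 12 weeks and was read on 6 one-colour Illumina bead arrays, 3 per genotype. Bone marrow of a wt donor (CD45.1.2) and of a Matn4-/- donor (CD45.2) had been mixed in equal parts and given to CD45.1 recipients irradiated with 2 doses of 500 rad. After 4 weeks the lineage-negative, Sca-1 and Kit positive cells that were CD150 positive and CD48 negative were sorted by flow cytometry. Both groups had therefore been through the same transplantation, and they differ in the Matn4 genotype and in the CD45 alleles of the donors. The sources used here do not say whether the 3 arrays of a genotype stem from separate recipients, so p-values measure only the spread between these samples, which may be technical. They also do not give how far DNA of another strain, if there is any, reaches from the Matn4 deletion.

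The 6 genes have different jobs in the cell. Plcb2 is an enzyme of G protein signalling in blood cells: on activation by receptor-coupled G proteins it cleaves a membrane phosphoinositide into a calcium-releasing messenger and diacylglycerol. Snx5 is a membrane-bending sorting nexin that returns cargo from endosomes to the Golgi apparatus, and Tmem87a is a multi-pass protein of the Golgi. Ccndbp1 is a helix-loop-helix protein that binds D-type cyclins, and Rmdn3 (also called PTPIP51) tethers mitochondria to the endoplasmic reticulum. Lrrc57 is a small leucine-rich repeat protein. In bulk RNA, fewer cells of a type and less RNA per cell cannot be told apart.

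Of the 6 genes, 5 lie in one short region. In the gene table of assembly GRCm38.p6, Rmdn3 lies 0.408 Mb from Plcb2, Tmem87a 1.63 Mb, Lrrc57 1.88 Mb and Ccndbp1 2.28 Mb. These 5 genes are 43.4 to 45.7 Mb from Matn4. Snx5 stands by itself, 20.1 Mb from Matn4 and 25.5 Mb from Plcb2. The members were chosen among lower genes of chromosome 2 beyond the 10 Mb limit, but not all such genes are members (B2m and Ehd4, below, are not). Whether their distance from one another played a part in the choice is not known, so nothing is read from their lying together.

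The start-site regions of the 3 members with the brightest leading probes are shown because these genes gave the clearest readings in both genotypes. Each line holds 250 bases before and 50 bases after the annotated start (RefSeq, GRCm38.p6), 5′ to 3′ on the strand of the gene. Capitals mark the letters CCGGAAG or their reverse complement CTTCCGG, the core recognised by ETS family factors. The windows are chr2:118728389-118728688 (minus strand) for Plcb2, chr2:120404067-120404366 (minus strand) for Tmem87a and chr2:121008158-121008457 (plus strand) for Ccndbp1.
Plcb2: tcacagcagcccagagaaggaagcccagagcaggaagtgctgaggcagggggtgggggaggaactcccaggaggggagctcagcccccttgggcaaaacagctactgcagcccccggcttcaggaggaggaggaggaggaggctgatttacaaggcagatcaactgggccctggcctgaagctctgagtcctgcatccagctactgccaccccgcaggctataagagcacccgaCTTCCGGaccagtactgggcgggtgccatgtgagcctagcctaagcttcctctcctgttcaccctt
Tmem87a: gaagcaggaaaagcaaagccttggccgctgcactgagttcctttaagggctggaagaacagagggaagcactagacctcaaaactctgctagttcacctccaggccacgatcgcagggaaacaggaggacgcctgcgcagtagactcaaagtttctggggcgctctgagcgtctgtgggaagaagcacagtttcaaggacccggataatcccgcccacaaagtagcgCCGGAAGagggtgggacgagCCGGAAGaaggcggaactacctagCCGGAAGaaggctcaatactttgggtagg
Ccndbp1: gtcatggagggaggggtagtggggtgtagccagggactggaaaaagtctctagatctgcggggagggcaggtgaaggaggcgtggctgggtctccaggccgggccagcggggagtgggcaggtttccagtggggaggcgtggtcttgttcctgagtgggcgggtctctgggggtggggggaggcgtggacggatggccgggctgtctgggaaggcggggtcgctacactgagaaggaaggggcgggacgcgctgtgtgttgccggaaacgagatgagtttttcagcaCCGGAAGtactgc
The ETS core was present once in the Plcb2 window, 3 times in that of Tmem87a and once in that of Ccndbp1, and it was not in the windows of Lrrc57, Rmdn3 and Snx5. Among 32851 mouse windows of the same length 8.86% held it. The GC box letters GGGCGG, searched on both strands like every motif here, stood in 7 member windows, from 5 of the 6 genes, all but Snx5. They stood in 35.7% of all windows. Lrrc57 had 3 windows and each other member 1, so a count of genes is not a share of windows. The Snx5 window held the E-box letters CACGTG (7.15% of all windows), and no member had TATAAA (13.6%), the GATA letters AGATAAG (3.04%) or the RUNX letters TGTGGTT (5.27%). None of these motifs contains another. A match of letters is a description of the sequence and not a binding site.

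Some properties of the arrays bear on the values. The deposited intensities still contain background: 12 probes of single-copy genes of the Y chromosome, absent from female cells, read 93.1 to 142.2, and a probe that did not exceed the array's brightest such reading (123.8 to 142.2) was treated as not above background. The array of Matn4-/- replicate 3 stood apart, with a mean Spearman correlation of 0.745 with the other arrays against 0.852 to 0.866 for those, so values without it are also given. The stem cell markers Kit, Slamf1, Procr, Mecom, Tek, Meis1, Gata2 and Hoxa9 lay above background on all 6 arrays, 8 of the 10 such markers measured. The brightest Matn4 probe had means of 282 ± 112 (wt) and 272 ± 90.5 (Matn4-/-; SD, n = 3 each). Since no source used here places that probe inside or outside the deletion, it does not check the labels.

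**Figure D1:**
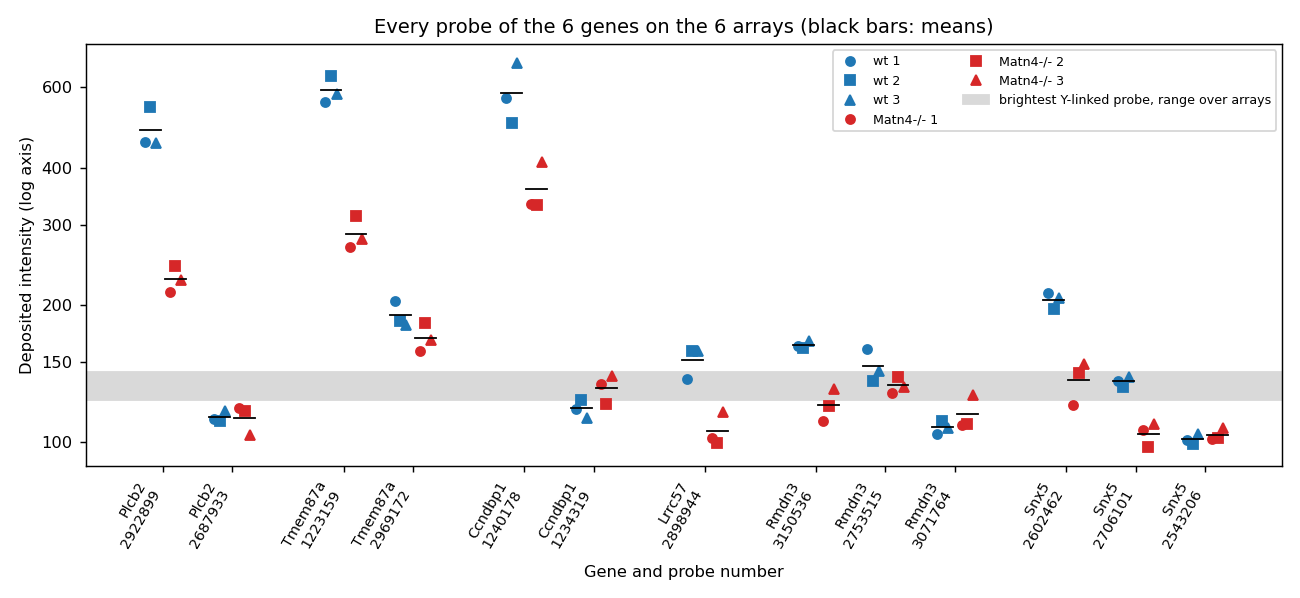
Deposited intensity on a log axis for all 13 probes of the 6 genes, with wt arrays in blue and Matn4-/- arrays in red, replicates as circles, squares and triangles, and means as black bars. The grey band is the range, over the arrays, of the brightest Y-linked probe (123.8 to 142.2). The leading probes of Plcb2, Tmem87a and Ccndbp1 lay above the band in both genotypes, and ILMN_2687933 (Plcb2), ILMN_1234319 (Ccndbp1), ILMN_3071764 (Rmdn3), ILMN_2706101 and ILMN_2543206 (both Snx5) lay in or under it.

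Plcb2 read 2.12-fold brighter in wt than in Matn4-/- cells with its leading probe, ILMN_2922899. It read 455.9, 544.7 and 453.1 on wt replicates 1 to 3 and 213.9, 243.5 and 227.2 on Matn4-/- replicates 1 to 3. Every wt array was thus above every Matn4-/- array, with 209.6 units between the nearest values. The means were 485 ± 52.1 and 228 ± 14.8 (SD, n = 3 each), a log2 difference of -1.08 ± 0.10 (SE of the limma fit). The other Plcb2 probe, ILMN_2687933, had means of 113 ± 2.98 in wt arrays and 113 ± 8.09 in Matn4-/- arrays and was above background on none of the 6 arrays, so it holds no measurement of the gene to set beside the first.

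Tmem87a was the second gene with a difference of that size, and its probes differed in how far they went. Probe ILMN_1223159, the one under the clone name, read 558.4, 635.8 and 579.6 on the wt arrays and 268.6, 313.3 and 278.7 on the Matn4-/- arrays. The genotypes were 245.1 units apart at their nearest. The means were 591 ± 40.0 and 287 ± 23.4 (SD, n = 3 each; log2 -1.04 ± 0.09, 2.06-fold higher in wt). Probe ILMN_2969172, the one that carries the symbol Tmem87a on the platform, read 204.4, 184.0 and 180.3 in wt and 158.5, 182.1 and 167.8 in Matn4-/- cells. These values were above background on all arrays, and here the genotypes overlapped (log2 -0.16 ± 0.08). Taken by the platform's symbol alone, Tmem87a would therefore be represented only by the probe with the smaller difference. The platform assigns both probes to the same RefSeq transcript.

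Ccndbp1, the cyclin D binding protein, had a smaller and more variable difference. ILMN_1240178 read 568.8, 500.4 and 678.4 on the wt arrays and 333.0, 331.0 and 412.2 on the Matn4-/- arrays. The groups did not overlap and were 88.2 units apart. Means were 583 ± 89.8 and 359 ± 46.3 (SD, n = 3 each; log2 -0.70 ± 0.13, 1.62-fold higher in wt). Over the 9 possible pairs of a Matn4-/- and a wt array the difference ran from -1.04 to -0.28 on the log2 scale, the widest range of the leading probes. The second probe, ILMN_1234319, was above background on no wt array and on 1 of 3 Matn4-/- arrays, and had means of 118 ± 5.33 and 131 ± 9.47 (log2 0.15 ± 0.07).

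Snx5, the endosomal sorting nexin outside the cluster, was the only one of the 6 with more than 1 probe that was lower without overlap. ILMN_2602462 read 212.3, 196.1 and 207.2 in wt and 120.8, 142.0 and 148.1 in Matn4-/- cells. The groups were 48.0 units apart, and the probe was above background on all 3 wt arrays and on 2 of 3 Matn4-/- arrays. Its means were 205 ± 8.31 and 137 ± 14.3 (SD, n = 3 each; log2 -0.59 ± 0.09, 1.5-fold higher in wt), and the difference was -1.16 after each array's background was removed. ILMN_2706101 read 136.3, 132.4 and 139.1 in wt and 106.2, 97.4 and 109.5 in Matn4-/- cells, again without overlap (means 136 ± 3.36 and 104 ± 6.27). It was above background on 2 of 3 wt arrays and on no Matn4-/- array, so the size of the measured log2 difference of -0.38 ± 0.06 depends on the background. Where no Matn4-/- array is above background, a lower bound sets the wt mean against the brightest Y-linked probe of each Matn4-/- array. That ratio was 1.02 for this probe. It is no firm bound, because the mean includes wt replicate 2, which was itself not above background. The third Snx5 probe, ILMN_2543206, matched to a cDNA clone, read 101 ± 2.74 and 104 ± 3.28 and was above background nowhere.

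Rmdn3, the mitochondrial tether, had 3 probes, and only 1 of them was lower without overlap. ILMN_3150536 read 162.3, 160.6 and 166.7 in wt and 111.0, 119.7 and 130.8 in Matn4-/- cells. These values left a gap of 29.8 units, and the probe was above background on all 3 wt arrays and on 1 Matn4-/- array. Its means were 163 ± 3.17 and 121 ± 9.93 (SD, n = 3 each; log2 -0.44 ± 0.08). With 2 of the 3 Matn4-/- arrays not above background the size of this difference depends on the background, and it was -1.06 after background removal. ILMN_2753515, of nearly the same mean intensity, read 160.1, 136.4 and 143.1 in wt and 128.0, 139.2 and 132.4 in Matn4-/- cells. On this probe, above background on 2 of 3 arrays of each genotype, the genotypes overlapped (log2 -0.14 ± 0.07). ILMN_3071764 was above background on 1 of the 6 arrays, a Matn4-/- array, and read 108 ± 3.62 and 115 ± 10.

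Lrrc57 had a single probe, ILMN_2898944, so no second reading of it exists here. It read 137.5, 158.1 and 158.1 on the wt arrays, all above background, and 102.2, 99.4 and 116.3 on the Matn4-/- arrays, all below it. The groups were 21.2 units apart. With means of 151 ± 11.9 and 106 ± 9.07 (SD, n = 3 each) the measured log2 difference was -0.51 ± 0.09 (-1.46 after background removal), and the wt level was at least 1.13-fold higher.

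Across the 13 probes, 7 had every Matn4-/- array below every wt array, 6 overlapped and none was higher without overlap. Over all 46237 probes 4.29% were lower without overlap, and since the genes were chosen for being lower, nothing is read from the members' share. Of the 5 genes with more than 1 probe, Snx5 alone had a second probe that was lower without overlap. The probes that did not follow were of 2 kinds. Those of Plcb2 (ILMN_2687933) and Snx5 (ILMN_2543206) were above background on no array, and those of Ccndbp1 (ILMN_1234319) and Rmdn3 (ILMN_3071764) on 1 array each. The second probes of Tmem87a and Rmdn3 were measurable on most arrays and still overlapped. The sequences of the probes were not used here, so which exons or transcript ends they read was not tested.

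**Figure D2:**
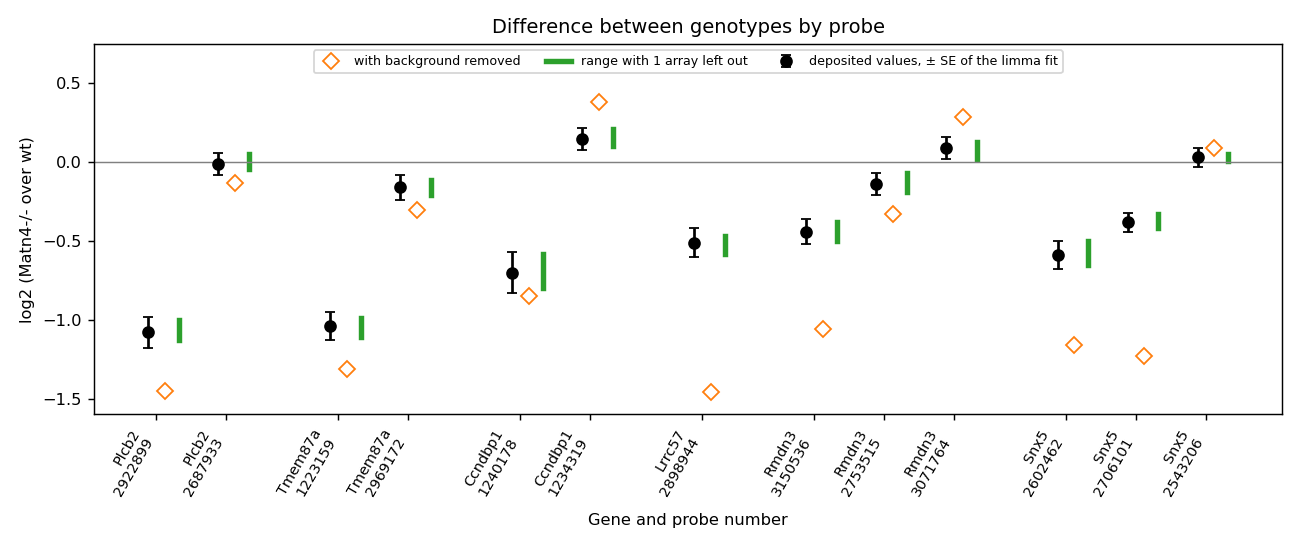
Log2 difference of Matn4-/- against wt for each of the 13 probes. Black points are the deposited values with the standard error of the limma fit, green bars the range when 1 array is left out in turn, and orange diamonds the difference after each array's background was removed. The green bars of the 7 probes without overlap ran from -1.13 to -0.33, and for such probes they can only be negative.

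With each array left out in turn, which cannot change the sign where groups do not overlap, the leading probes stood at -1.13 to -1.0 for Plcb2, -1.11 to -0.99 for Tmem87a, -0.80 to -0.58 for Ccndbp1, -0.65 to -0.50 for Snx5, -0.58 to -0.47 for Lrrc57 and -0.50 to -0.38 for Rmdn3 (log2). Without Matn4-/- replicate 3, the array that stood apart, they were -1.08, -1.03, -0.80, -0.65, -0.58 and -0.50 in the same order. Within the Matn4-/- group that array was the highest of the 3 in 4 of the 6 genes (Ccndbp1, Lrrc57, Rmdn3 and Snx5) and replicate 1 the lowest in 4 (Plcb2, Tmem87a, Rmdn3 and Snx5). Averaged over the 6 genes after each was centred on its own mean, the wt arrays stood at 0.32, 0.37 and 0.40 and the Matn4-/- arrays at -0.47, -0.35 and -0.27 (log2).

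Genes with a similar pattern were sought among all genes tested, by the root mean square difference over the 6 arrays between a gene's centred log2 values and that average. The nearest were Wdr73 (0.0859), Zfp87 (0.111), Rbm12 (0.116), Rec8 (0.119) and Fmnl1 (0.148), against a median of 0.382 over 12758 genes. The members themselves lay between 0.0934 (Snx5) and 0.204 (Plcb2). Of the 5, only Rbm12, an RNA-binding protein gene 8.28 Mb from Matn4, is on chromosome 2. Wdr73 and Rbm12 passed the threshold of 0.05 (limma with Benjamini-Hochberg adjustment, adjusted p = 0.0444 each) and Zfp87 did not (adjusted p = 0.0541). The calls of Wdr73 and Rbm12 were lost with quantile normalization and with any 1 array left out. Rec8, a meiotic cohesin subunit, had means of 235 ± 18.4 (wt) and 151 ± 19.7 (Matn4-/-) and did not pass (SD, n = 3 each; limma adjusted p = 0.25), nor did Fmnl1, a formin of blood cells, with 200 ± 11.0 and 140 ± 13.7 (limma adjusted p = 0.25). On the Matn4-/- arrays Zfp87 and Rec8 were above background on only 2 of 3 and Fmnl1 on 1, so their differences depend in part on the background. The likeness was sought in the same arrays that chose the members, so it is a description.

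Beside the members stood other chromosome 2 genes beyond 10 Mb from Matn4 whose readings were lower without overlap. The 4 with the largest differences on the deposited scale were B2m, Ehd4, Zdhhc12 and Mfap1b. B2m, the light chain of MHC class I, had means of 1278 ± 188 (wt) and 857 ± 52.4 (Matn4-/-; SD, n = 3 each), a log2 difference of -0.57, and lay above background on all 6 arrays. Ehd4, an endosomal ATPase, also above background on all 6 arrays, read 1018 ± 66.7 and 726 ± 83.0 (log2 -0.49). On that scale the difference of B2m was thus larger than those of the members Lrrc57 (-0.51) and Rmdn3 (-0.44), and that of Ehd4 larger than that of Rmdn3. Lrrc57 and Rmdn3 read near background in Matn4-/- cells, and after its removal their leading probes had -1.46 and -1.06. The order is therefore one of deposited values only. Mfap1b, a spliceosome component, read 206 ± 27.2 and 154 ± 16 (log2 -0.42). B2m, Ehd4 and Mfap1b lie near the cluster, Ehd4 1.36 Mb, Mfap1b 2.73 Mb and B2m 3.42 Mb from Plcb2. Zdhhc12, a palmitoyltransferase, read 310 ± 9.59 and 235 ± 57.5 (log2 -0.43) and lies 88.6 Mb from Plcb2. Its Matn4-/- arrays read 272.4, 263.6 and 168.8, so the size of its difference rests largely on replicate 3, the array that stood apart. Of the genes nearest to the 10 Mb limit, Gnas, just inside it, had a log2 difference of 0.16 and Nelfcd, just beyond it, of 0.17. Both lie on the other side of Matn4 from the 6 members. On the members' side the genes nearest to the limit by midpoint were Cbfa2t2, inside it, with -0.15, and Cdk5rap1, beyond it, with -0.12.

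**Figure D3:**
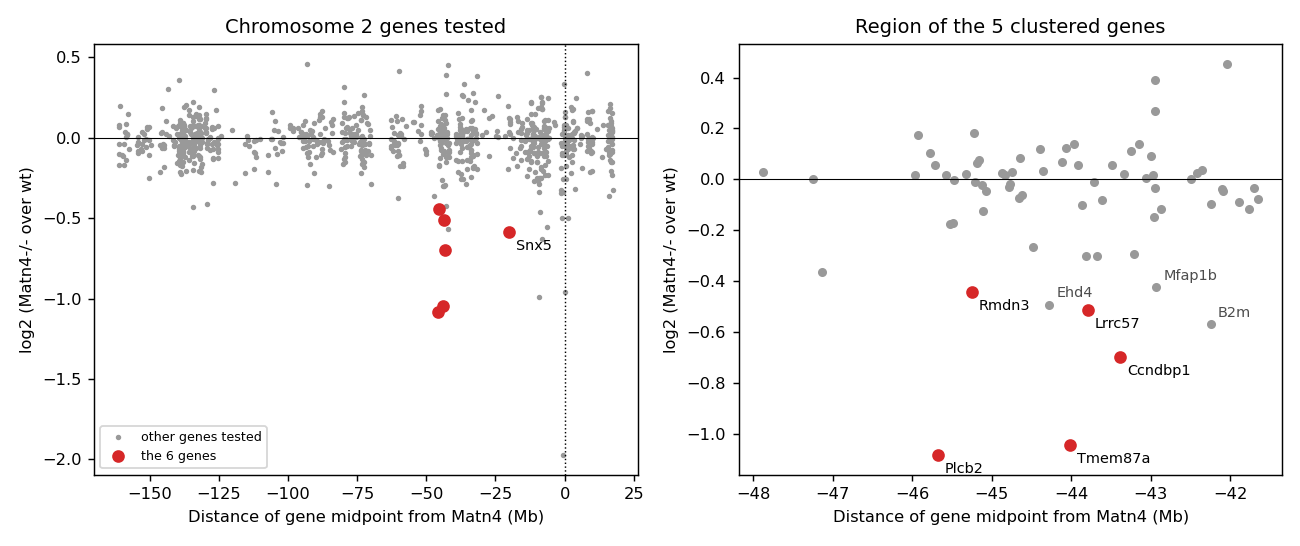
Log2 difference of Matn4-/- against wt for every chromosome 2 gene tested, by the distance of its midpoint from Matn4 in Mb (left), and the region of the 5 clustered genes enlarged (right). Red points are the 6 genes and grey points all others. The 5 clustered genes lay between -1.08 and -0.44 among neighbours on both sides of 0, and Snx5 stood at -0.59.

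The genes around the cluster were then examined to see whether the whole region read lower. From 1 Mb before Plcb2 to 1 Mb after Ccndbp1, 53 other genes were tested. By limma with Benjamini-Hochberg adjustment over all 12764 genes, none of the 53 passed the threshold of 0.05 (smallest adjusted p = 0.312), where 0.0548% of all genes did and 0.047% did so with a lower value. This count leaves out the members, which were chosen for their lower readings. The shares over all genes include the members, with Plcb2 and Tmem87a among the genes past the threshold. B2m, 3.42 Mb from Plcb2, lies beyond this window and is not among the 53. At an unadjusted p under 0.05 stood 6 of them (11.3%, against 5.59% of all genes), 2 higher and 4 lower, and by mean 30 were higher and 23 lower. Their median log2 difference was 0.017 against -0.008 over all genes, and 0.035 against 0.015 without Matn4-/- replicate 3. Groups did not overlap in 6 that were lower (11.3%, against 6.22% of all genes) and in 3 that were higher (5.66%, against 4.29%).

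The named neighbours went both ways and none passed. After Ehd4 and Mfap1b, the lower readings without overlap were those of Snap23, a membrane fusion protein (406 ± 75.6 and 326 ± 13.9, log2 -0.30), Tubgcp4, of the gamma-tubulin ring (178 ± 8.64 and 145 ± 8.09, log2 -0.29), Ivd, an enzyme of leucine breakdown (log2 -0.17), and Itpka, an inositol trisphosphate kinase (log2 -0.07), which was below background on all Matn4-/- arrays. The higher ones were Hypk, a partner of the N-terminal acetyltransferase (720 ± 44.6 and 871 ± 104, log2 0.27), Srp14, of the signal recognition particle (694 ± 25.7 and 783 ± 31.3, log2 0.17), and Vps39, of endosomal tethering (log2 0.12), above background on no wt array and 2 Matn4-/- arrays.

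The tested genes next to each member, were a choice made after the values were seen. Of these 12 neighbours, 1 was lower without overlap (Snap23, 2.98 kb from Lrrc57) and 1 was higher without overlap (Vps39, 2.17 kb from Tmem87a), where 6.22% and 4.29% of all genes were, so nothing particular to the neighbours is read from these counts. Their log2 differences ran from -0.30 to 0.18. Plcb2, for example, lies 6.98 kb from Pak6, a kinase gene with a log2 difference of 0.06 ± 0.12, and 85.3 kb from Knstrn, a spindle protein gene with 0.02 ± 0.07. Ganc, a glucosidase gene that overlaps Tmem87a at one end, had means of 148 ± 15.2 (wt) and 164 ± 24.1 (Matn4-/-; log2 0.14 ± 0.12).

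Within 1 Mb of Snx5, 9 other genes were tested and none passed by limma (smallest adjusted p = 0.868). At an unadjusted p under 0.05 stood 1 of them (11.1%, against 5.59% of all genes). By mean 7 were higher and 2 lower, with a median log2 difference of 0.083. Groups did not overlap in 2, both higher (22.2%, against 4.29% of all genes), namely Kat14, an acetyltransferase subunit (178 ± 9.97 and 194 ± 6.15, log2 0.12), and Dstn, the actin-severing protein destrin (log2 0.20), above background on no wt array and 1 Matn4-/- array. Over chromosome 2 beyond 10 Mb from Matn4, 752 genes other than the 6 were tested, of which 38 (5.05%) stood at an unadjusted p under 0.05, 5.98% were lower without overlap and 4.92% higher, shares close to those of all genes.

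Known partners of the members other than Lrrc57 were examined in 4 lists, and none of the 86 measured partners passed the threshold (limma, smallest adjusted p = 0.387). At an unadjusted p under 0.05 stood 5 of them (5.81%, against 5.59% of all genes). By mean 32 were higher and 54 lower, where 5957 of all genes were higher and 6807 lower. The median log2 difference was -0.028 against -0.008 over all genes. Without Matn4-/- replicate 3 the split was 41 higher and 45 lower with a median of -0.002, and over all genes 7105 and 5659 with a median of 0.015.

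Of the PLC-beta signalling genes, 28 of 34 were measured, 13 higher and 15 lower by mean (median log2 -0.011). Without Matn4-/- replicate 3 the balance turned to 18 higher and 10 lower (median log2 0.052). Rgs10, which speeds up the shut-off of G proteins, had means of 282 ± 9.21 (wt) and 383 ± 49.5 (Matn4-/-; log2 0.44, limma adjusted p = 0.387) without overlap, opposite in sign to Plcb2. Gnai2, an inhibitory G protein alpha subunit, had 0.33, and Itpr1, the calcium channel that opens on the messenger Plcb2 makes, 0.18. The G protein gamma subunit Gng10 had -0.22, and the diacylglycerol kinases Dgkz and Dgka -0.18 and -0.17. Groups did not overlap in 4 higher genes (Rgs10, Itpr1, the related phospholipase Plcb1 and the beta subunit Gnb1) and in 2 lower ones (Gng10 and the kinase Prkcb), 14.3% and 7.14% against 4.29% and 6.22% of all genes. Plcb1, with 0.18, was above background on no wt array and 1 Matn4-/- array, and Prkcb, with -0.15, on 1 wt array and no Matn4-/- array.

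Genes of endosome to Golgi retrieval, the partners of Snx5 and Tmem87a, had 25 of 30 members measured, 6 higher and 19 lower by mean. Their median log2 difference was -0.098, and -0.063 without Matn4-/- replicate 3, where the median of all genes was 0.015. Groups did not overlap in 4, all lower (16%, against 6.22% of all genes). The largest difference was that of Tmem87b, the paralogue of Tmem87a (164 ± 32.8 and 132 ± 5.73, log2 -0.29). Tmem87b was above background on only 1 Matn4-/- array, and it lies on chromosome 2, 35.5 Mb from Matn4. The others were Snx1, which pairs with Snx5 in one coat (261 ± 8.85 and 227 ± 20.0, log2 -0.20), the mannose 6-phosphate receptor M6pr, a retrieved cargo (log2 -0.13), and the tether subunit Vps54 (log2 -0.12). No gene of the list passed, and each adjusted p (limma) was at least 0.884. Vps53 and Snx10 had -0.23 and -0.22, and the highest were Snx8, Snx12 and Snx4 with 0.08, 0.07 and 0.06, all with overlapping groups.

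The partners of Ccndbp1 and Rmdn3 lay on both sides of 0. Of the cyclin D and helix-loop-helix genes 16 of 17 were measured, 7 higher and 9 lower (median log2 -0.03). E2f1, a driver of S phase, had -0.25, Lyl1 and Cdk6 had -0.10 and -0.09, and Tcf12, Id3 and Tal1 had 0.19, 0.15 and 0.09. The 1 gene without overlap was the E protein Tcf4, with -0.08 (6.25% of the list, against 6.22% of all genes lower without overlap). Of the genes of contacts between endoplasmic reticulum and mitochondria 17 of 18 were measured, 6 higher and 11 lower (median log2 -0.029). The mitofusin Mfn2 had -0.19 and Mfn1 0.13, Vapa, a partner of Rmdn3 on the reticulum, had -0.13, and Osbpl8, a lipid transfer protein, -0.12. Vps13a had 0.19 and the pore protein Vdac1 0.15, the latter without overlap (1072 ± 46.6 and 1190 ± 33.5), which is 5.88% of the list against 4.29% of all genes higher without overlap. None of these passed, and without Matn4-/- replicate 3 the split became 8 to 8 in the first list and 9 to 8 in the second.

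**Figure D4:**
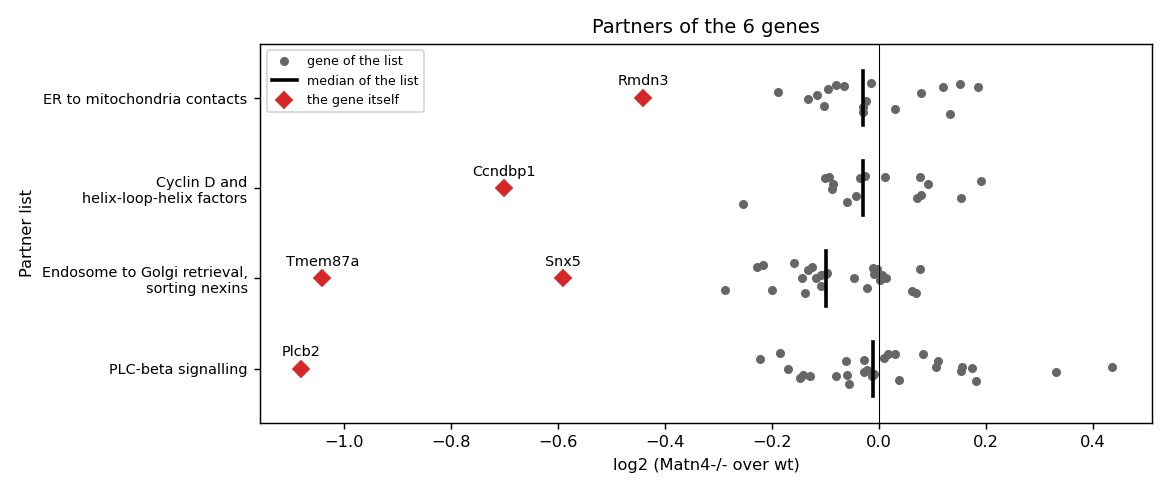
Log2 difference of Matn4-/- against wt for the 86 measured partners in 4 lists (grey points, vertical position within a list is random), with each list's median as a black bar and the leading probe of the member itself as a red diamond. The partners lay between -0.29 and 0.44, while the members they belong with stood at -1.08 (Plcb2), -1.04 (Tmem87a), -0.70 (Ccndbp1), -0.59 (Snx5) and -0.44 (Rmdn3).

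Markers of other blood cells were set beside these values. The summed intensity of the 6 T and NK cell markers was 1027 to 1063 on the wt arrays and 932 to 987 on the Matn4-/- arrays, without overlap. Of these markers 3 (Cd8b1, Lat and Nkg7) were above background on all 6 arrays and Cd3e and Cd3g on none, so part of the sum is background. Among all genes 6.22% were lower without overlap, and several lists were compared, so nothing is read from this sum. The sums of the 5 platelet markers were 1036 to 1109 and 923 to 1036, which meet in whole units, so whether they overlap is not read from them. The other lists overlapped between genotypes, with sums of 1207 to 1841 and 1229 to 1940 for neutrophils and monocytes, 1301 to 2309 and 1607 to 2380 for erythroid cells, 718 to 1032 and 774 to 1192 for mast cells and basophils, 377 to 391 and 365 to 401 for B cells, and 500 to 518 and 483 to 608 for stroma and endothelium. The part of such cells in the readings of the 6 genes was not tested.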

How the data were processed

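RNA of 6 samples was read on one-colour bead arrays. The deposited value table holds 1 linear intensity per probe and array. How the authors normalized it and treated the background is not stated in any source used here. A second, non-normalized table was not used, because none of its 12 column names (6 signals, 6 detection p-values) matches a label. Column medians were 118.0 to 120.4. The number of arrays limits the precision.

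Entrez identifiers (28620 probes) or accessions (2637 probes) were used to update the platform's symbols. The brighter 50% of probes (23118) were kept, the brightest standing for a gene (12764 genes). Log2 intensities were fitted with limma 3.58.1 in R 4.3.3 (genotype as the only term, Benjamini-Hochberg adjustment, threshold 0.05). Standard errors come from this fit, or from the same fit on all probes for a gene's other probes. The fit was tested on simulated data. Tables and plots used Python 3.11.15, pandas 2.3.3 and matplotlib 3.10.9.

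Members, lists and motifs were chosen with earlier results of these data known. Named genes are the members, genes past the threshold, then those with the largest differences (per direction, up to 6 around the cluster and 3 around Snx5 among genes without overlap, and 3 in each partner list), the 4 next chromosome 2 genes without overlap and the 5 most alike. Gm, LOC, EG and Rik symbols were left out of the naming. Further genes of a small count without overlap (Prkcb, Plcb1, Gnb1, Snx1, M6pr, Vps54 and Tcf4) and the genes next to each member were named after their values had been seen. Alternatives were other filters, background removal, normalizations, variance models, probe summaries, a replicate block and leaving out each array.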

Additional observations from a re-analysis of the deposited data

How the results depend on the processing

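The number of genes past the threshold was 7, which include Plcb2 and Tmem87a, members chosen for their lower reading. It became 4 with each array's 1st percentile removed and an offset of 16 added. When each kept probe was tested alone 11 probes passed, those of the same 7 genes (Rbm12 by 2 probes) and 3 probes without a symbol. With 1 array left out in turn the number of genes ranged from 3 (without Matn4-/- replicate 1) to 7, and was 4 without wt replicate 1. Among the neighbours of the cluster, those of Snx5 and the partner lists the count was 0 under each of the 15 alternatives. Removing the background moved the difference of 12 of the 13 member probes by more than the spread between replicates, and no direction without overlap turned. On the log2 scale Plcb2 then had -1.45 (ILMN_2922899) and -0.13 (ILMN_2687933), Tmem87a -1.31 and -0.30, Lrrc57 -1.46, Rmdn3 -1.06, -0.33 and 0.29, Snx5 -1.16, -1.23 and 0.09, and the dim Ccndbp1 probe 0.38. Values near background, those of Lrrc57, Rmdn3 and Snx5 among them, depend most on this choice. The replicate numbers are shared by the genotypes, and with mixed marrow same-numbered arrays could stem from the same recipients, which the labels do not say. Deviations of same-numbered arrays correlated at 0.0164, 0.0587 and 0.0608, those of differently numbered arrays at -0.0832 to 0.0211. Such small values cannot decide whether the arrays are pairs. The main fit took no pairs, and a fit with a replicate block is set beside it. With the replicate block 9 genes passed over all and the member differences were as without it, since each number occurs once per genotype. The other alternatives left the member differences within the spread between replicates.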
